A study of Mus musculus with 14 samples.

Results

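The 9 genes described here carry dietary sugar into the small intestinal epithelium, split fructose there, or build glucose from smaller molecules. They were chosen by name for these roles, out of 54532 genes in the deposited table: the sugar transporters Slc5a1, Slc2a2 and Slc2a5, the fructolysis enzymes Khk and Tkfc, and the gluconeogenesis enzymes G6pc, Fbp1, Pck1 and Pck2. Their RNA was measured in scraped ileum mucosa from 7 WT and 7 IKO male mice, with 1 library per mouse. The mice had been on a high-fat diet (HFD) for 15 weeks. By the study's methods the diet began at 7 to 8 weeks of age, while a figure legend of the study gives a later age. Mice of both groups carried floxed NCoR1 alleles. The WT mice were NCoR1 flox/flox without Cre, and the IKO mice also carried a Cre recombinase driven by the villin promoter, which acts in the intestinal epithelium. The labels call the cells intestinal epithelial cells, but scraped mucosa also holds other cells, in which the floxed gene stays whole. Mice with Cre alone and mice on chow were not analysed here, and whether the mice were fed or fasted at collection is not given in the sources used here.

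Glucose and galactose enter enterocytes from the gut lumen through SGLT1, the sodium-driven transporter encoded by Slc5a1, and fructose enters through GLUT5, encoded by Slc2a5. GLUT2, encoded by Slc2a2, passes these sugars on to the blood across the opposite face of the cell. Inside the cell, ketohexokinase phosphorylates fructose, the product is split, and triokinase phosphorylates the glyceraldehyde that is set free. The small intestine also holds enzymes of gluconeogenesis, a pathway best known from liver and kidney, whose last step, release of free glucose, is made by glucose-6-phosphatase.

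Libraries held between 14749669 and 21557468 counts. The mitochondrial genome gave 50.3% of counts in IKO 4 and 23.9% in WT 3, against 3.49% to 10.3% in the other 12 libraries, and WT 4 stood apart for genes of smooth muscle. Results were therefore also computed without WT 3, WT 4 and IKO 4. Ncor1 itself was at 106.4 to 194.5 CPM (normalized counts, with library sizes scaled by TMM factors) in WT and at 31.7 to 64.0 CPM in IKO mice. Counts were summed over all its exons, so the deletion was not seen by itself. Of 7 enterocyte markers, 0 passed the test described next. Their summed level was 15712 to 55076 CPM in WT (median 34609) and 37785 to 55786 CPM in IKO mice (median 51216), and the lowest sum was that of WT 7.

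Genotypes were compared gene by gene in edgeR (quasi-likelihood test, p-values adjusted by Benjamini-Hochberg over 13846 genes), and a gene was called at an adjusted p under 0.05. All 9 genes passed the filter on low counts. G6pc rose and Slc2a2 fell in IKO mice, and the other 7 did not pass. Among all genes tested, 8.67% were called, 4.38% higher and 4.28% lower. The log2 fold changes of the 9 genes ran from -2.11 to 2.17 with a median of 0.21, beside a median of -0.09 over all genes tested, with 5 above and 4 below 0. The groups overlapped for each of the 9 genes, while 3.1% of all genes tested had groups that did not overlap, 1.83% with IKO above and 1.26% with IKO below. DESeq2 also called these 2 of the 9, with 16.6% of genes called. In bulk mucosa, a change in the share of a cell type and a change in RNA per cell cannot be told apart.

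**Figure D1:**
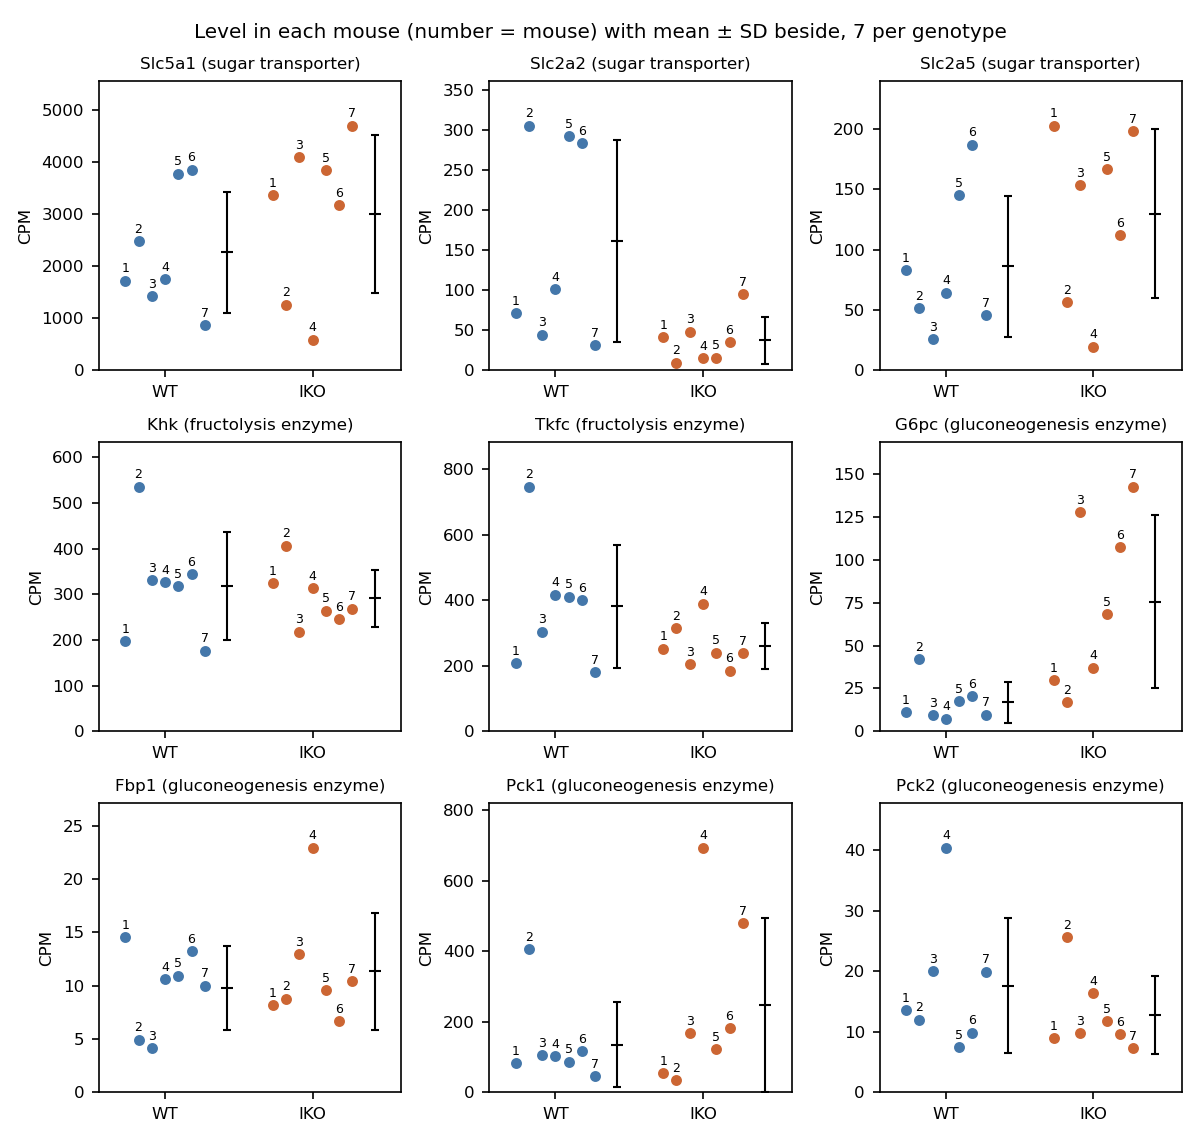
Level of each of the 9 genes in CPM (y axis, from 0) in the 7 WT and 7 IKO mice, with 1 point per mouse numbered as in the labels and mean and SD drawn beside them. In each of the 7 IKO mice G6pc lay above the WT median and Slc2a2 below it, and the groups overlapped for every gene. Of all genes tested, 11.8% had all IKO mice above the WT median and 15.8% had all below it.

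Slc2a2 was the transporter that differed. It lies on chromosome 3 from 28697903 to 28731359 on the plus strand (mm10), with up to 11 exons. Its level in WT mice was 31.4 CPM at the lowest, 101.6 CPM at the median and 305.7 CPM at the highest. In IKO mice these values were 9.49, 35.4 and 95.1 CPM. The IKO mice lay below the WT median in 7 of 7 cases, as for 15.8% of all genes tested. Of these mice, 3 lay below every WT mouse. In turn, 4 WT mice lay above every IKO mouse, while WT 7, WT 3 and WT 1 lay among the IKO values. The mean fell from 161.6 ± 125.9 CPM (SD, n = 7) to 37.4 ± 29.4 CPM (SD, n = 7). On the log2 scale this was -2.11 with a standard error of 0.60 (edgeR adjusted p = 0.0419), or 4.32-fold lower with a 95% confidence interval of 1.79 to 10.4.

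The call for Slc2a2 stood close to the threshold. It held when WT 1, WT 3, WT 7 or IKO 7 was left out (edgeR adjusted p between 0.0280 and 0.0437). It was lost when any of the other 10 libraries was left out: the edgeR adjusted p was 0.0609 without WT 2, 0.0507 without WT 4, 0.0629 without WT 5, 0.0619 without WT 6, 0.0755 without IKO 1, 0.0693 without IKO 2, 0.0559 without IKO 3, 0.0705 without IKO 4, 0.0903 without IKO 5 and 0.0581 without IKO 6. It was also lost without WT 3, WT 4 and IKO 4 together (log2 fold change -2.26, edgeR adjusted p = 0.0700). The direction was lower in IKO mice in 25 of 25 alternatives, with log2 fold changes from -2.54 to -1.74.

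The other transporters did not pass. Slc5a1, on chromosome 5 from 33104219 to 33162870, was at 870 to 3854 CPM in WT mice with a median of 1749 CPM, and at 593 to 4699 CPM in IKO mice with a median of 3358 CPM. IKO 4 was the lowest of all 14 mice and IKO 7 the highest, so the WT values lay within the IKO range. Its fold change was 1.32 with a 95% interval of 0.705 to 2.49 (edgeR adjusted p = 0.543). Slc2a5, on chromosome 4 from 150119283 to 150144169, was at 25.8, 64.4 and 187 CPM at the lowest, median and highest in WT and at 19.8, 154 and 203 CPM in IKO mice. Here too IKO 4 was the lowest mouse, and 5 of 7 IKO mice lay above the WT median. Its fold change was 1.51 with a 95% interval of 0.742 to 3.07 (edgeR adjusted p = 0.419). For either gene, changes within its interval remain compatible with the values.

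Because the levels of the 3 transporters spread widely within each genotype, their ratios within each library were also taken, from the deposited FPKM, which divide by gene length. These ratios do not depend on library scaling. They were chosen after the values had been seen and were given no test. For every 100 FPKM of Slc5a1, Slc2a2 reached 2.25 FPKM at the lowest, 4.14 FPKM at the median and 8.80 FPKM at the highest in WT mice. In IKO mice the same ratio was 0.294, 0.839 and 1.88. The groups did not overlap, which held in that direction for 0.311% of all genes set against Slc5a1 in this way, and in the other direction for 0.166%. The lowest WT mouse was WT 3 and the highest IKO mouse was IKO 4, the libraries with the largest mitochondrial shares. Against 100 FPKM of Slc2a5, Slc2a2 was at 40.3 to 351 FPKM in WT (median 93.2) and at 5.62 to 46.7 FPKM in IKO mice (median 18.6), with 6 of 7 IKO mice below every WT mouse. The ratio of the apical transporters to each other overlapped, with 2.19 to 6.38 FPKM of Slc2a5 per 100 FPKM of Slc5a1 in WT and 4.03 to 7.28 in IKO mice.

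**Figure D2:**
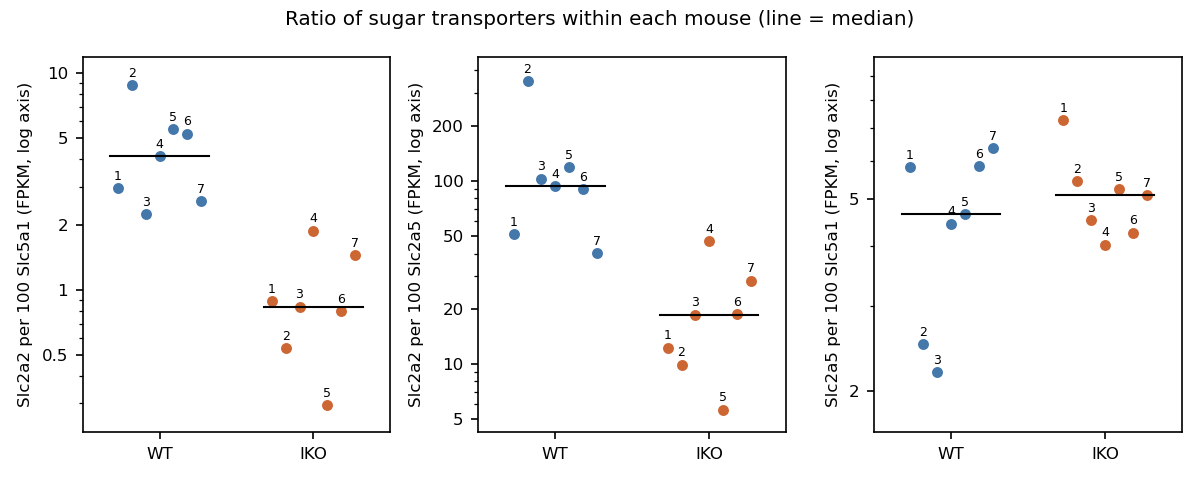
Ratios of the 3 sugar transporters within each mouse, from FPKM on a log axis, with 1 numbered point per mouse and a line at the median of each genotype. Slc2a2 per 100 Slc5a1 was 2.25 or more in the 7 WT mice and 1.88 or less in the 7 IKO mice, while Slc2a5 per 100 Slc5a1 overlapped.

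Neither of the fructolysis enzymes passed the test. In WT mice, Khk stood above 98.1% and Tkfc above 98.0% of the genes tested by FPKM. Khk, on chromosome 5 from 30921431 to 30931248, encodes ketohexokinase. It was at 177 CPM at the lowest, 327 CPM at the median and 536 CPM at the highest in WT and at 218, 269 and 406 CPM in IKO mice. The IKO values lay inside the WT range, with a fold change of 0.915 and a 95% interval of 0.651 to 1.29 (edgeR adjusted p = 0.739). Tkfc, on chromosome 19 from 10592200 to 10604258 on the minus strand, encodes triokinase. Its level was 180, 400 and 747 CPM at the lowest, median and highest in WT and 186, 240 and 390 CPM in IKO mice. The IKO mice lay below the WT median in 7 of 7 cases, a pattern shared by 15.8% of all genes tested, and the fold change was 0.685 with a 95% interval of 0.451 to 1.04 (edgeR adjusted p = 0.205). Exons of Tkfc share bases with Ddb1 and Cyb561a3 on the opposite strand, and whether the counting used strand is not given in the sources used here, so reads there cannot be told apart.

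Of the gluconeogenesis enzymes, G6pc changed. It encodes the catalytic subunit of glucose-6-phosphatase and lies on chromosome 11 from 101367561 to 101377903 on the plus strand, with 5 exons. Its level in WT mice was 7.41 CPM at the lowest, 11.3 CPM at the median and 42.1 CPM at the highest, which was WT 2. In IKO mice it was 16.9, 68.1 and 143 CPM. All IKO mice lay above the WT median, as did 11.8% of all genes tested, and 4 of them lay above every WT mouse, while 4 WT mice lay below every IKO mouse. The mean rose from 16.8 ± 12.1 CPM (SD, n = 7) to 75.6 ± 50.5 CPM (SD, n = 7), or 2.17 on the log2 scale with a standard error of 0.50 (edgeR adjusted p = 0.0182). The fold change was 4.50 with a 95% interval of 2.16 to 9.38. The call held with any single library left out. It was lost without WT 3, WT 4 and IKO 4 together, where the log2 fold change was 2.02 (edgeR adjusted p = 0.0637).

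The other enzymes of this route did not pass. Pck1, the cytosolic phosphoenolpyruvate carboxykinase, lies on chromosome 2 from 173153048 to 173159273. It had the largest SD relative to its mean of the 9 genes in both genotypes (89.4% in WT and 99.1% in IKO mice), with 46.7 to 405 CPM in WT (median 102) and 35.5 to 694 CPM in IKO mice (median 167). A few mice stood high in each group, namely WT 2, IKO 4 and IKO 7. Its fold change was 1.83 with a 95% interval of 0.745 to 4.49 (edgeR adjusted p = 0.343), and the log2 fold change of 0.87 became 0.36 without IKO 4 and 1.45 without WT 2. Pck2, the mitochondrial form, lies on chromosome 14 from 55540266 to 55551242 and was at 7.48 to 40.5 CPM in WT (median 13.6) and at 7.29 to 25.7 CPM in IKO mice (median 9.81). Its fold change was 0.725 with a 95% interval of 0.424 to 1.24 (edgeR adjusted p = 0.401). The highest mouse was WT 4, whose smooth muscle markers summed to 10855 CPM, against at most 796 CPM in any other mouse, and without WT 4 the log2 fold change moved from -0.46 to -0.11. What smooth muscle RNA adds to Pck2 was not tested. An antisense gene on the other strand, Gm10876, shares exon bases with Pck2.

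Fructose-1,6-bisphosphatase is encoded by Fbp1 and Fbp2. Fbp1, on chromosome 13 from 62864753 to 62888282 on the minus strand, was low, at 4.15 to 14.5 CPM in WT (median 10.6) and 6.66 to 23.0 CPM in IKO mice (median 9.60). Its fold change was 1.16 with a 95% interval of 0.725 to 1.84 (edgeR adjusted p = 0.683). Its sign turned when IKO 4, the highest mouse, was left out (log2 fold change -0.05). Fbp2, known best from muscle and singled out here after its values were seen, was the more abundant of the pair per gene length. It was at 209 FPKM on average in WT and 236 FPKM in IKO mice, and its lowest library (138 FPKM) lay above the highest Fbp1 library (13.7 FPKM). Within a library Fbp2 was between 18.3 and 114 times the level of Fbp1, and it did not differ past the threshold between genotypes either (log2 fold change 0.13, edgeR adjusted p = 0.684).

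**Figure D3:**
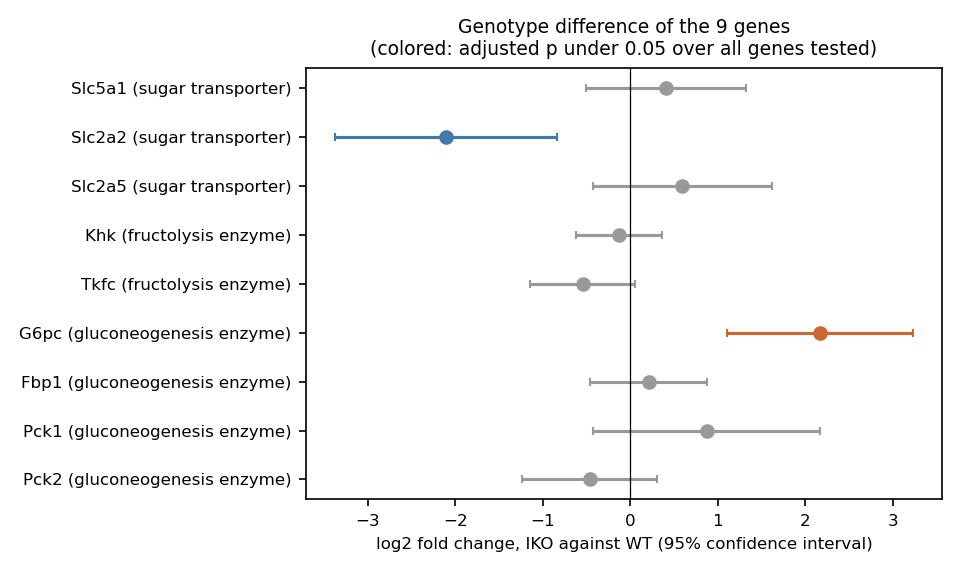
Genotype difference of the 9 genes as log2 fold change, IKO against WT (x axis), with 95% confidence intervals from edgeR, and colored where the adjusted p was under 0.05. G6pc, at 2.17, and Slc2a2, at -2.11, have intervals clear of 0 and passed the test, and the other 7 intervals include 0.

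To show the promoters of the called genes, the 250 bases before each RefSeq transcription start are printed on the plus strand, 5′ to 3′ (GRCm38.p6), with AGGTCA, the hexamer to which nuclear receptors bind, in capitals on whichever strand it reads (TGACCT is the same hexamer on the other strand). The Slc2a2 stretch is chr3:28697653-28697902 and the G6pc stretch is chr11:101367466-101367715. The RefSeq start of G6pc lies inside the gene as the count table delimits it.
Slc2a2: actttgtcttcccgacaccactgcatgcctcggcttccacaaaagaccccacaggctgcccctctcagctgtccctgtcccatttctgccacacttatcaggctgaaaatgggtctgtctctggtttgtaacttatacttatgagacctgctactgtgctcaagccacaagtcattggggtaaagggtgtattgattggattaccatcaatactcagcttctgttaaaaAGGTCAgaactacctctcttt
G6pc: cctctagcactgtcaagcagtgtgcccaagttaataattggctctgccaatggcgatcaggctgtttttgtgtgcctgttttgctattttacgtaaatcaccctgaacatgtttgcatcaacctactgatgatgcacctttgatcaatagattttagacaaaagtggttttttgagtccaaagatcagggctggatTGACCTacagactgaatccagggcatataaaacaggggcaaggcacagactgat
The hexamer, read on the plus strand, began 21 bases before the Slc2a2 start and 54 bases before that of G6pc, and it stood in none of the other 7 promoters. It was present in 14.02% of the 32851 promoters of this length. Its exact direct repeat with any single base between the copies (DR1) was in 0 of the 9 promoters and in 0.0335% of all. At so small a share, 0 of 9 says little about these genes. CACGTG, an E-box, was found in the promoters of Slc5a1 and Khk and in 6.02% of all. TGACGTCA, the full palindrome of the cAMP response element, was in 0 of the 9 and 1.55% of all. Both strands were searched, for exact matches only. Variant forms of these elements were not searched, so 0 matches does not show that they are absent. A match shows these letters only, and says nothing about which factor was bound.

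Per gene length, the order of the 9 genes in WT mice was led by Slc5a1 at 542 ± 282 FPKM (SD, n = 7). Khk followed at 173 ± 63.9, Tkfc at 165 ± 81.7, Pck1 at 38.6 ± 34.4, Slc2a2 at 27.6 ± 21.6 and Slc2a5 at 24.9 ± 17.2 FPKM. G6pc at 6.83 ± 4.90, Fbp1 at 5.63 ± 2.28 and Pck2 at 2.20 ± 1.38 FPKM closed the order. Neighbours in it overlapped in every case, in both genotypes. In IKO mice Slc5a1 was at 733 ± 372 FPKM, above 99.4% of the genes tested, as it was in WT. Slc2a2 stood above 88.5% of the genes tested in WT and above 64.4% in IKO mice, at 6.51 ± 5.17 FPKM. G6pc went the other way, from above 66.0% to above 87.3%, at 31.4 ± 21.0 FPKM in IKO mice. The transcript for the last step of glucose production was thus below that for basolateral sugar export in the WT means and above it in the IKO means.

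The mice did not keep 1 order across the 9 genes. WT 2 was the highest WT mouse for Slc2a2, Khk, Tkfc, G6pc and Pck1, and also had the highest sum of enterocyte markers in WT. WT 7, with the lowest sum, was the lowest for Slc5a1, Slc2a2, Khk, Tkfc and Pck1. Among IKO mice, IKO 7 was highest for Slc5a1, Slc2a2 and G6pc, IKO 4 was highest for Tkfc, Fbp1 and Pck1 and lowest for Slc5a1 and Slc2a5, and IKO 2 was lowest for Slc2a2, G6pc and Pck1. The called genes thus had the same lowest and the same highest mouse within the IKO group, while they moved in opposite directions between the groups. The part of enterocyte content in these differences was not tested. Slc2a2 is most abundant in proximal small intestine, and of 5 tested markers of that region 1 rose, Fabp1, a lipid-binding protein that is also a PPARα target (log2 fold change 2.17, edgeR adjusted p = 0.0277). The other 4 did not pass and went in different directions, with log2 fold changes of 0.77 for Apoa4, 0.21 for Onecut2, 0.00 for Gata4 and -1.01 for Lct (edgeR adjusted p between 0.254 and 1.00). Cybrd1 and Pdx1 were too low to test. The list summed to 921 to 9542 CPM in WT and 3361 to 13319 CPM in IKO mice, mostly from Fabp1 and Apoa4. Of 6 distal ileum markers 0 passed, with sums of 1541 to 9676 CPM in WT and 1482 to 7147 CPM in IKO mice. Their log2 fold changes went both ways, from -1.75 for Fgf15 (edgeR adjusted p = 0.0616) to 1.08 for Slc10a2. WT 2, WT 5 and WT 6, the highest WT mice for Slc2a2 (284 to 306 CPM), had the lowest distal sums in WT (1541 to 2640 CPM). The IKO mice were mixed: the lowest distal sum was that of IKO 2, also the lowest for Slc2a2. IKO 3 was high in both, with a distal sum of 6474 CPM and Slc2a2 at 48.2 CPM. IKO 7, the highest for Slc2a2 (95.1 CPM), had a distal sum of 3101 CPM. IKO 4 had the highest distal sum (7147 CPM), with Slc2a2 at 15.6 CPM. The part of position along the gut was not tested. Alb, the defining transcript of liver, a tissue rich in G6pc and Slc2a2, had 2 counts over the WT and 2 over the IKO libraries. It came from a list of 6 genes of hepatocytes and pancreatic acinar cells. Serpina1a had 32 counts over WT and 9 over IKO libraries, Cpa1 5 and 29, Cela3b 0 and 9, and Pnlip 1 and 30. Only Apob could be tested, and it did not pass (log2 fold change 0.36, edgeR adjusted p = 0.633). Carry-over from these tissues was not tested.

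Other genes of these routes were read from 4 lists written from general knowledge, with earlier results of these data known. Of 18 genes for digestion and entry of sugars, 16 could be tested and 1 of these rose, beside 4.38% of all genes tested. The median log2 fold change was 0.02. The gene was Slc5a4a, a relative of the SGLT family, which went from 48.0 ± 30.7 to 181.5 ± 85.6 CPM (SD, n = 7 each), or 1.92 on the log2 scale with a standard error of 0.46 (edgeR adjusted p = 0.0217). It has a close paralog, Slc5a4b, so reads shared between the copies may be split in ways that cannot be seen here. Sis, the sucrase-isomaltase that frees glucose and fructose from sucrose, had a log2 fold change of -0.21 (edgeR adjusted p = 0.831).

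Of 14 other genes of fructose and triose handling, 4 rose and the remaining 10 did not pass, with a median log2 fold change of 0.40. Of all genes tested, 4.38% rose. Tpi1, the triose phosphate isomerase, went from 501 ± 160 to 1005 ± 145 CPM (log2 fold change 1.00, edgeR adjusted p = 0.0116). Gpd1, which turns dihydroxyacetone phosphate into the glycerol backbone of lipids, had a log2 fold change of 0.94 (edgeR adjusted p = 0.0156), and Sord, which makes fructose from sorbitol, of 0.84 (edgeR adjusted p = 0.0182). For Tpi1, Gpd1 and Sord every IKO mouse lay above every WT mouse, as in 1.83% of all genes tested. Hk2, a hexokinase, had a log2 fold change of 1.05 (edgeR adjusted p = 0.0420). Its call was lost without any of WT 1, WT 2, WT 4, WT 6, WT 7, IKO 1, IKO 3, IKO 5, IKO 6 and IKO 7 (edgeR adjusted p between 0.0541 and 0.0875). Without WT 3, WT 4 and IKO 4, 0 of the 14 passed edgeR's test and the median log2 fold change was 0.32.

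Of 21 genes that feed or accompany gluconeogenesis, 19 could be tested, of which 7 rose and 12 did not pass. Of all genes tested, 4.38% rose. The median log2 fold change of the list was 0.61. Without WT 3, WT 4 and IKO 4, 4 of the list rose, beside 276 of all 14038 genes, and the list's median was 0.58. Got1, the cytosolic aspartate aminotransferase, had a log2 fold change of 1.06 (edgeR adjusted p = 0.0106), and Ldha, a lactate dehydrogenase subunit and the most abundant of the list by its mean over both genotypes, went from 297 to 605 FPKM (beside 302 and 580 FPKM for Mdh1; log2 fold change 0.99, edgeR adjusted p = 0.0116). Slc25a1, the citrate carrier, had a log2 fold change of 0.95 (edgeR adjusted p = 0.0086), Slc25a11, the oxoglutarate carrier, of 0.71 (edgeR adjusted p = 0.0175), and Pcx, the pyruvate carboxylase, of 0.95 (edgeR adjusted p = 0.0115).

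Mdh1, the cytosolic malate dehydrogenase, had a log2 fold change of 0.91 (edgeR adjusted p = 0.0239), which lost its call without WT 4, IKO 1 or IKO 5 (edgeR adjusted p between 0.0501 and 0.0513). Gpt, the alanine aminotransferase, had one of 0.79 (edgeR adjusted p = 0.0321), lost without any of WT 1, WT 3, WT 4, WT 7, IKO 1, IKO 5 and IKO 7 (edgeR adjusted p between 0.0514 and 0.0665). For Got1, Ldha, Pcx, Mdh1 and Gpt the groups did not overlap, with IKO above, as in 1.83% of all genes tested. Most of these enzymes also serve other routes, such as the malate-aspartate exchange and lactate production. Slc37a4, the carrier that brings glucose 6-phosphate to the enzyme that G6pc encodes, had a log2 fold change of 0.18 (edgeR adjusted p = 0.611).

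**Figure D4:**
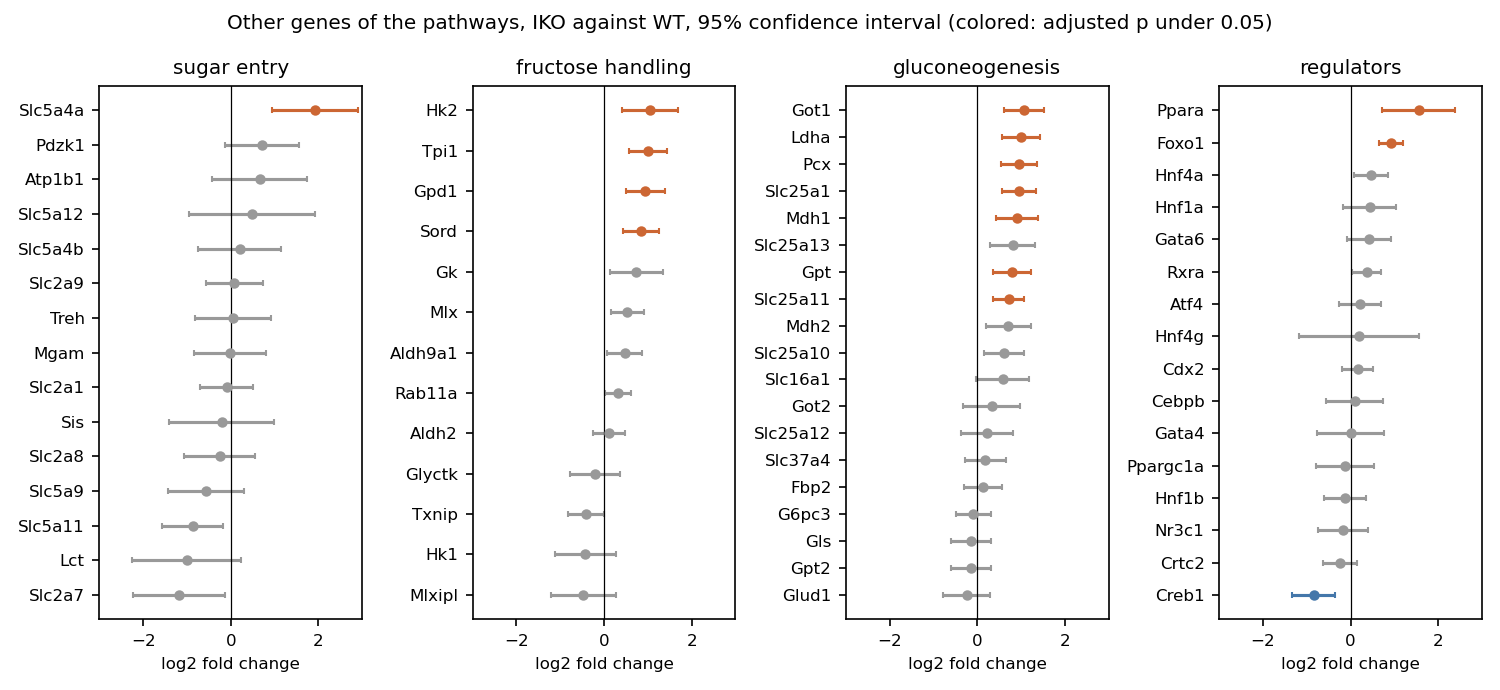
Log2 fold change, IKO against WT (x axis), with 95% confidence intervals, for tested genes of the 4 pathway lists, colored where edgeR's adjusted p was under 0.05. The 7 called genes around gluconeogenesis lie between 0.71 and 1.06, and Slc5a4a at 1.92 stands furthest to the right of the called genes.

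Of 16 transcription factors and cofactors known to act on these genes in gut or liver, 2 rose and 1 fell, with a median log2 fold change of 0.17. Of all genes tested, 4.38% rose and 4.28% fell. Foxo1, which acts on G6pc and Pck1 in liver, went from 29.8 ± 3.25 to 56.8 ± 8.24 CPM (SD, n = 7 each), with every IKO mouse above every WT mouse (log2 fold change 0.93 with a standard error of 0.13, edgeR adjusted p = 0.0010). Its call held in 25 of 25 alternatives, and 1.83% of all genes tested had no overlap in this direction. Creb1, the cAMP-responsive factor, fell from 29.2 ± 3.15 to 16.2 ± 6.88 CPM (log2 fold change -0.85, edgeR adjusted p = 0.0379). Its groups stood just apart, with the highest IKO mouse at 24.56 CPM and the lowest WT mouse at 24.60 CPM. Of all genes tested, 1.26% had no overlap in this direction. The call of Creb1 was lost without any of WT 1, WT 3, WT 5, WT 6, WT 7, IKO 1, IKO 2, IKO 4 and IKO 5 (edgeR adjusted p between 0.0517 and 0.0804). Ppara had a log2 fold change of 1.55 (edgeR adjusted p = 0.0285), lost without WT 7, IKO 3 or IKO 4 (edgeR adjusted p between 0.0521 and 0.0607). Without WT 3, WT 4 and IKO 4, 1 of the 16 rose, beside 276 of all 14038 genes. The median log2 fold change of the list was then 0.13, and the calls of Ppara (edgeR adjusted p = 0.0978) and Creb1 (edgeR adjusted p = 0.104) were lost. Hnf4a was the most abundant factor of the list at 159 FPKM in WT and 226 FPKM in IKO mice (log2 fold change 0.47, edgeR adjusted p = 0.107).

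The genes whose levels followed the called genes most closely over the 14 libraries were found by the root mean square difference of centred log2 CPM. The centring was over both genotypes, so the genotype difference of the called gene was part of the choice. The fold changes of the genes found are therefore no separate result. For Slc2a2 the nearest was Slc2a7, another sugar transporter of the same family, at a distance of 0.72 log2 units, followed by Unc93a at 0.75, where the median gene was at 1.62. Neither passed the test between genotypes. Slc2a7 was at 24.1 ± 18.9 CPM in WT and 10.6 ± 5.75 CPM in IKO mice (log2 fold change -1.19, edgeR adjusted p = 0.125), and Unc93a had a log2 fold change of -1.14 (edgeR adjusted p = 0.0710). For G6pc the nearest were Slc30a10, a manganese exporter, at 0.68 and Npl, a lyase of sialic acid breakdown, at 0.72, with the median gene at 1.52. Slc30a10 rose with a log2 fold change of 1.37 (edgeR adjusted p = 0.0495), and Npl had one of 1.11 (edgeR adjusted p = 0.0775).

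**Figure D5:**
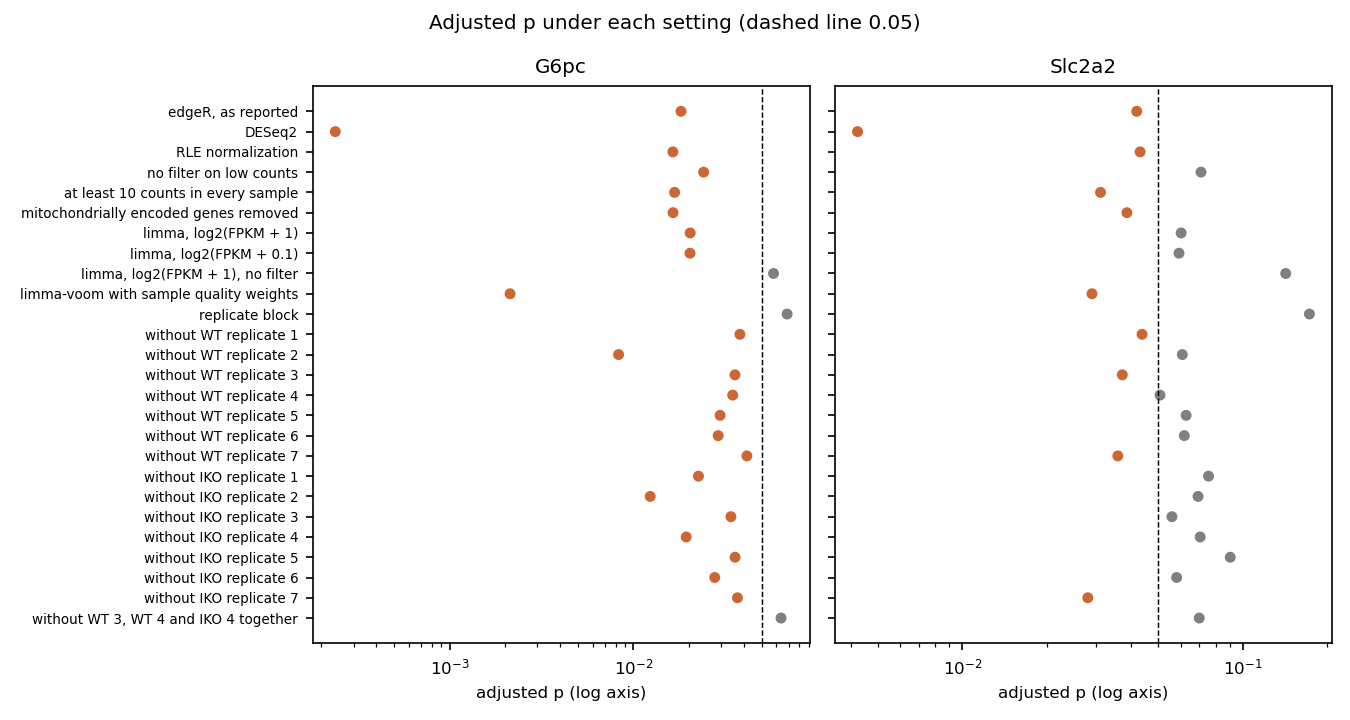
Adjusted p (x axis, log scale, with its own range in each panel) of G6pc (left) and Slc2a2 (right) for the reported edgeR test and each of 25 alternatives (y axis), with a dashed line at 0.05 and colored points below it. G6pc was called in 22 alternatives and Slc2a2 in 9, and neither gene changed sign in any of the 25.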

How the data were processed

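RNA of the ileum mucosa (7 WT and 7 IKO mice) was sequenced as paired ends after preparation with a NEBNext Ultra kit. Per the labels and the study's methods, reads were aligned with HISAT2 2.0.5 to mm10 and counted with featureCounts 1.5.0-p3, and neither filters nor strandedness are given in the sources used here. The deposited counts are whole numbers per gene without normalization. The deposited FPKM are these counts over gene length, scaled with a DESeq2 size factor for each library and a shared constant, as tested on the values.

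After filterByExpr and TMM normalization, genotypes were compared in edgeR 4.0.16 under R 4.3.3 (quasi-likelihood test, genotype as the only term, Benjamini-Hochberg adjustment over 13846 genes). The standard error is the log2 fold change divided by the square root of F, and intervals are at 95%. The intervals describe the uncertainty of the estimated genotype difference, judged from the spread between these mice. Levels are CPM with TMM factors unless FPKM is named. FPKM served to compare genes, to take ratios within a library, to give some levels by genotype and for the limma alternatives. The method was tested on simulated counts. Depth was 14749669 to 21557468 counts, and the 9 genes had between 61 and 79410 counts per library.

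The 9 genes, the lists and the rule for naming were chosen with earlier results of these data known. Named were the 9 genes, every called gene of 4 pathway lists with the most abundant gene of each and Slc37a4, Sis, Pcx and Ppara, and the nearest genes by pattern. Results for some single genes under this rule are not reported here. Tried besides were DESeq2 1.42.0, RLE in place of TMM, counts without a filter or with a minimum of 10 in each library, mitochondrially encoded genes removed, limma 3.58.1 on log2 FPKM with pseudocounts of 1 and 0.1 (genes above 0.5 in at least 7 libraries, or no filter), limma-voom with quality weights, the sample number as a block, each library left out, and WT 3, WT 4 and IKO 4 left out together. Promoters were read from RefSeq (GRCm38.p6, all 9 genes matched), and exons from GENCODE for GRCm38, where 8 of the 9 genes have the same start and end as in the files.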

Additional observations from a re-analysis of the deposited data

Results flagged for a closer look

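Single mice stood far from the others of their genotype in 6 of 24 sets of 7 values examined by Dixon's test. About 1.2 would be flagged if the sets were normal and independent. These sets were unlogged levels and ratios that share genes and mice, so the counts cannot be compared strictly. WT 2 was at 747 CPM for Tkfc, with the other WT mice between 180 and 417 CPM, at 42.1 CPM for G6pc, with the others between 7.41 and 20.6 CPM, and at 405 CPM for Pck1, with the others between 46.7 and 117 CPM. WT 2 also held 351 FPKM of Slc2a2 per 100 FPKM of Slc2a5, against 40.3 to 119 in the other WT mice. IKO 4 was at 23.0 CPM for Fbp1, with the other IKO mice between 6.66 and 13.0 CPM. WT 4 was at 40.5 CPM for Pck2, with the other WT mice between 7.48 and 20.05 CPM. For G6pc the difference between genotypes was larger without WT 2 (log2 fold change 2.58, edgeR adjusted p = 0.0083).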

How the results depend on the processing

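Against 1200 genes called by edgeR (607 higher, 593 lower), DESeq2 called 2578, limma-voom 1889, edgeR without a filter 508 (346 higher, 162 lower, with the median of all genes at -0.32) and limma on log2(FPKM + 1) without a filter 614 (454 higher, 160 lower). With the filter, limma called 708 higher and 328 lower at a pseudocount of 1 and 706 higher and 317 lower at 0.1. Leaving out WT 3, WT 4 and IKO 4 left 433, and leaving out single libraries between 515 and 1371, with 746 without WT 4, 600 without WT 7, 526 without IKO 1, 728 without IKO 2, 515 without IKO 5 and 789 without IKO 7. Of the 9 genes, 1 instead of 2 was called without a filter and by limma at either pseudocount, and 0 by limma without a filter or without the 3 libraries (2 and 3 at an unadjusted p under 0.05; DESeq2 called 2). With single libraries left out the count was between 1 and 2. The sign of Fbp1 turned under limma-voom (-0.26), without IKO 4 (-0.05) and without the 3 libraries (-0.19), and that of Khk without WT 2 (0.05). With single libraries left out, Fbp1 ran from -0.0502 to 0.31 and Khk from -0.24 to 0.0489. The cause was not tested. Apart from G6pc and Slc2a2, none of the 9 genes was called in any of the 25 alternatives. Each of the 9 genes had at least 61 counts in every library.

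The genotypes share sample numbers, but nothing states that a number pairs mice. Deviations of same-numbered mice correlated between -0.31 and 0.23, and 1 of 7 WT mice was closest to the IKO mouse of its own number. With the number as a replicate block, edgeR called 362 genes and 0 of the 9 (2 at an unadjusted p under 0.05), with log2 fold changes of -2.07 for Slc2a2 (edgeR adjusted p = 0.173) and 2.16 for G6pc (edgeR adjusted p = 0.0687). Of the 15 called genes of the pathway lists, 4 passed with the block.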
